A study of Mus musculus with 4 samples.

Results

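The genes described here encode membrane transporters of amino acids, sugars and monocarboxylates such as lactate, in MyD88-deficient mouse macrophages left unstimulated or given zymosan. They were chosen by name, as every gene with a single symbol in the platform annotation that begins with one of 10 family prefixes (Slc1a, Slc2a, Slc3a, Slc5a, Slc6a, Slc7a, Slc16a, Slc36a, Slc38a and Slc43a). The transporters Slc2a1, Slc2a3, Slc7a11 and Slc16a3 were left out. This gave 97 genes of 18193 with a single symbol on the array. The prefixes also take in carriers of other substrates, such as nucleobases, urate and vitamins. They take in genes that encode no transporter as well, namely Slc7a6os, Slc36a1os, Slc6a19os and Slc2a4rg-ps. These are counted among the transporters below.

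Bone marrow of MyD88 -/- mice was cultured for 6 days with recombinant human M-CSF to give macrophages. One group (2 arrays) was unstimulated, at 0 min, and the other (2 arrays) received 100 ug/ml zymosan, a particle of yeast cell wall, for 120 min. Both groups lack MyD88, the adaptor of most Toll-like receptors, and wild-type cells were not analysed here. Neither the number of mice nor the separateness of the cultures is labelled, so every p-value rests on array-to-array variation that may be purely technical. The titles of the unstimulated arrays name LPS and PIC, while those of the zymosan arrays name ZYM. Whether the unstimulated arrays were controls of other stimulus series is not labelled. The unstimulated arrays were scanned 16 days apart. Both zymosan arrays were scanned on 1 day, 153 days after the first and by another operator, so the stimulus and the day of scanning cannot be told apart here. The probe set of Myd88 itself read 8.72 and 8.78 without and 8.37 and 8.40 with zymosan; whether its probes lie in the deleted part was not analysed here, so it checks no label.

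Solute carriers move nutrients across the plasma membrane and the lysosomal membrane. Slc2a proteins carry sugars down their gradient and Slc5a proteins couple sugars, inositol, vitamins or iodide to sodium. Slc16a proteins carry lactate, pyruvate or aromatic amino acids. Slc7a proteins carry cationic or neutral amino acids, several of them only as pairs with the glycoprotein heavy chain Slc3a2. Slc1a and Slc38a proteins carry glutamate, glutamine and small neutral amino acids, Slc6a proteins carry taurine, creatine, glycine and transmitters, Slc36a proteins are proton-coupled, and Slc43a proteins carry large neutral amino acids or nucleobases. In macrophages such carriers supply arginine, glutamine and glucose and export lactate.

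The transporters that passed the test after zymosan were all higher at the probe set of highest mean, which represented each gene. Other probe sets of some genes fell, as given below. With so few arrays, a gene that did not pass is not shown to be unchanged. Values are log2 expression values, so a difference of 1 is a change of 2-fold. A gene was tested when its probe set reached the 40th percentile of the array, a log2 value of 4.36 to 4.39, on at least 2 arrays. That left 62 of the 97 genes. Of these, 6 rose and none fell by limma's test across all genes (adjusted p under 0.05), and 56 did not pass. At an unadjusted p under 0.05, 13 were higher and 4 lower. The share of all genes at that unadjusted threshold was not counted, here or below, so these counts have no background to be read against. The share called was 9.68%, against 16.8% of all 13222 genes tested, of which 10.1% were higher and 6.73% lower. None was called at 2-fold or more, where 3.68% of all genes were. The median difference of the tested transporters was 0.02, against 0.00 for all genes, and their median absolute difference was 0.18, the same as for all genes. The arrays of the groups did not overlap for 36 of the 62 genes, or 58.1%, against 60.6% of all genes.

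The count of calls depended on single arrays. Without zymosan replicate 1 or without zymosan replicate 2, limma called 0 transporters, while 7 and 10 were higher and 1 was lower each time at an unadjusted p under 0.05. The share of all genes called was then 2.34% and 1.71%. Without unstimulated replicate 1, 13 transporters were higher and 3 lower, and without unstimulated replicate 2, 9 and 2. Those were 26.2% of the transporters against 22.6% of all genes, and 18.0% against 19.9%, so the order of the shares given above turned round without unstimulated replicate 1. With the mean over a gene's probe sets as its value, the shares were 16.1% and 17.0%. All 6 passed in both of those fits. With the scan day as a random block, 2 were higher, Slc38a6 and Slc43a3.

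Markers of the labelled cell type and of others were read on the same arrays. All 8 macrophage markers with a probe set were tested, with mean log2 values over the list of 11.6 to 11.8 on unstimulated and 11.1 to 11.2 on zymosan arrays, and 5 of them fell (Adgre1, Csf1r, Fcgr1, Itgam and Cd14). Of 12 granulocyte and granulocyte precursor markers 11 rose, and their mean was 5.87 to 5.97 on unstimulated and 7.71 to 7.81 on zymosan arrays. None of these 12 lay below the filter's level on every array, and the neutrophil enzymes Mpo and Mmp8 rose by 3.23 and 3.48. Ms4a3, among those that rose, lay below the level on both unstimulated arrays, at 3.89 and 4.03. It was tested only through its zymosan arrays, so a difference was built into its selection. The 5 T and NK cell markers with a probe set averaged 4.10 to 4.14 and 4.00 to 4.08, and the 5 of mast cells and basophils 3.83 to 3.92 and 3.74 to 3.82, both below the level. Cd3d, Cd3g, Cd2 and Ncr1 lay below it on every array, as did Cpa3, Mcpt8, Ms4a2 and Fcer1a. Cd3e lay above it on all 4 arrays, at 6.03 and 6.21 without and 5.84 and 6.01 with zymosan, and Kit on 1. B cell markers averaged 4.55 to 4.59 and 4.501 to 4.53, and stromal markers 4.41 to 4.42 and 4.29 to 4.31. Dendritic cell markers averaged 5.26 to 5.29 and 5.09 to 5.12, and erythroid and megakaryocyte markers 6.59 to 6.64 and 6.62 to 6.76. In these lists Itgax fell by 0.93 (adjusted p = 0.00479) and Cd79b by 0.58 (adjusted p = 0.0143), and Pf4 rose by 0.43 (adjusted p = 0.0401). Pf4 read 12.70 and 12.81 without and 13.14 and 13.22 with zymosan. The other erythroid and megakaryocyte markers with a probe set averaged at most 6.44 in either group, so Pf4 raised the mean of that list. In these samples fewer cells of a type and less RNA per cell cannot be told apart. The part of the granulocyte markers' shift in the transporter differences was not tested.

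**Figure D1:**
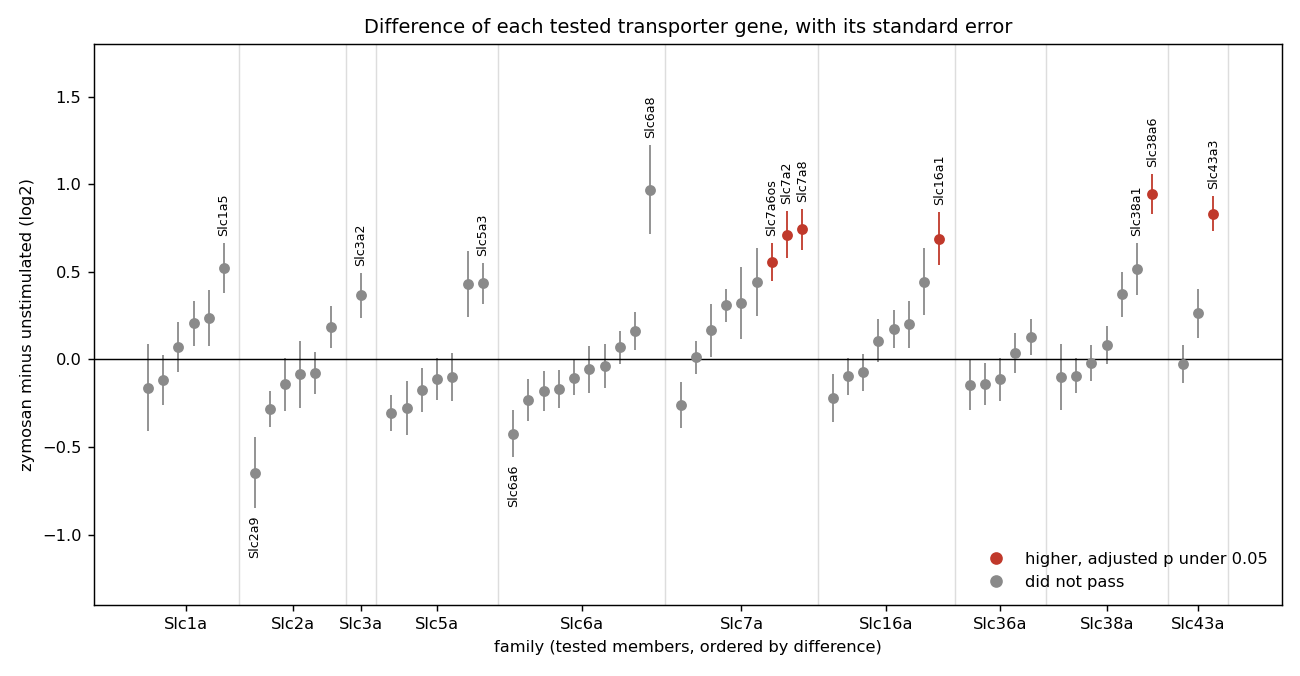
Difference between zymosan and unstimulated arrays (log2, vertical axis) for each of the 62 tested genes, grouped by family along the horizontal axis. Points are limma estimates and bars standard errors; red marks the 6 genes past the threshold. Slc38a6 lies at 0.94 among the called genes, while Slc6a8 at 0.97 has a wider bar and did not pass.

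The other 35 genes were not tested, and for 33 of the 97 every array lay below the filter's level. Slc6a held 11 of these 33 and Slc5a and Slc7a 6 each. Among them were transporters known from neurons, kidney or gut, such as the dopamine transporter Slc6a3, the renal cystine transporter pair Slc3a1 and Slc7a9, and the intestinal glucose transporter Slc5a1. The betaine and GABA transporter Slc6a12 read 3.62 and 3.78 on the unstimulated arrays and 3.60 and 3.81 on the zymosan arrays, all below the level. A value below the level is a bound only, since RMA gives a number for every probe set. In 55 of the 97 genes every array lay at or above it.

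Slc38a6, a member of the sodium-coupled neutral amino acid transporter family, had the largest difference among the called transporters. It read 7.63 and 7.85 on the unstimulated arrays and 8.65 and 8.72 on the zymosan arrays. Both zymosan arrays lay above both unstimulated arrays. It rose 1.92-fold (0.94, SE 0.11, adjusted p = 0.00625).

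Slc43a3, which carries purine nucleobases, read 7.78 and 7.91 without stimulus and 8.68 on both zymosan arrays. It rose 1.78-fold (0.83, SE 0.10, adjusted p = 0.00636), and the groups did not overlap. Slc38a6 and Slc43a3 passed in 9 of the 11 alternatives and missed the threshold without either zymosan array, with adjusted p up to 0.0735 and 0.0741.

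Slc7a8, a neutral amino acid exchanger (LAT2) that pairs with Slc3a2, read 8.57 and 8.51 without and 9.16 and 9.40 with zymosan. It rose 1.67-fold (0.74, SE 0.12, adjusted p = 0.0128), with both zymosan arrays above both unstimulated ones. Slc16a1, the lactate and pyruvate carrier MCT1, read 7.70 and 7.51 without and 8.11 and 8.48 with zymosan. It rose 1.61-fold (0.69, SE 0.15, adjusted p = 0.0328). Its zymosan arrays lay further apart than those of the other called genes, and the groups did not overlap.

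Slc7a2, the cationic amino acid transporter CAT-2, which imports arginine, read 3.90 and 4.22 without zymosan and 4.81 and 4.75 with it. Both unstimulated arrays lay below the filter's level, so the gene was tested only through its zymosan arrays, and a difference was built into its selection. It rose at least 1.31-fold (fitted difference 0.71, SE 0.13, adjusted p = 0.0202). Its other 3 probe sets lay below the level on every array and give no measure of it. Slc7a6os, which is no transporter and lies beside Slc7a6, read 5.11 and 5.30 without and 5.74 and 5.77 with zymosan. It rose 1.47-fold (0.55, SE 0.11, adjusted p = 0.0232). Slc16a1, Slc7a8 and Slc7a6os also missed the threshold without either zymosan array, with adjusted p up to 0.194, 0.121 and 0.173, and Slc7a2 did not pass the filter there. With the scan day as a random block, adjusted p was 0.149 for Slc16a1, 0.068 for Slc7a8, 0.067 for Slc7a2 and 0.0872 for Slc7a6os.

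**Figure D2:**
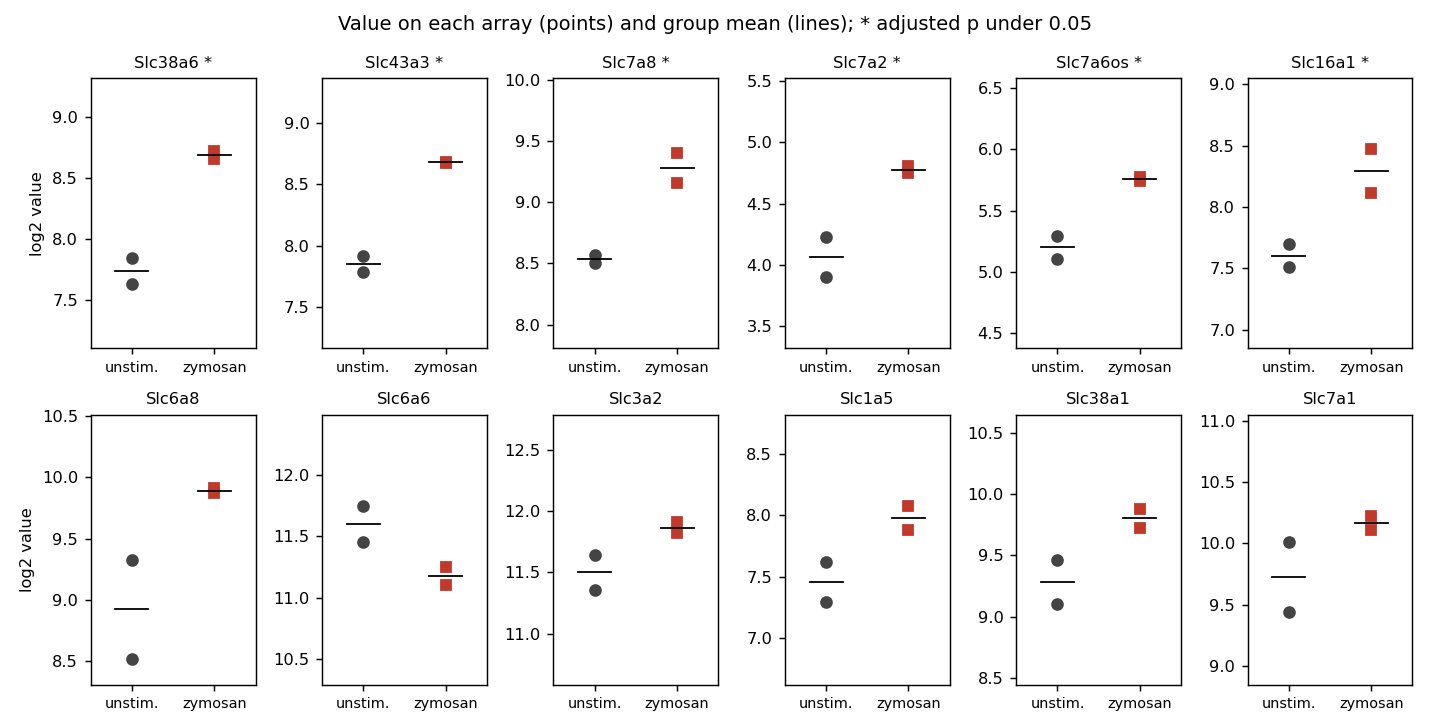
Log2 value of 12 genes of the set, among them Slc7a6os, which is no transporter, on each array (circles unstimulated, squares zymosan, 2 arrays each). Lines are group means, and every panel spans the same log2 range. The top row holds the 6 called genes, whose groups do not overlap. In the bottom row the unstimulated arrays of Slc6a8 lie at 9.33 and 8.52, further apart than those of Slc38a6.

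Promoter sequences are given for 2 of the genes that rose, because each holds a match to a motif that was searched. They come from RefSeq (GRCm38.p6) and run from 250 bases before to 50 after the annotated start, 5′ to 3′. Of the 97 genes, 71 had an entry, and of the 6 that rose, 4 did. Capitals mark the match.
Slc16a1, chr3:104638414-104638713, plus strand: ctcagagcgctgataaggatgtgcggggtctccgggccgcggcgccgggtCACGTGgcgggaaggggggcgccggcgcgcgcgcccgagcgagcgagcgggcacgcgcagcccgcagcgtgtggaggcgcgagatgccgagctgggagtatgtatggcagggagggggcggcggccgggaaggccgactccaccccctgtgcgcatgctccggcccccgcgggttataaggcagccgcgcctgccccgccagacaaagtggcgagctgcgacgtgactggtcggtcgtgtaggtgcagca
Slc38a6, chr12:73286598-73286897, plus strand: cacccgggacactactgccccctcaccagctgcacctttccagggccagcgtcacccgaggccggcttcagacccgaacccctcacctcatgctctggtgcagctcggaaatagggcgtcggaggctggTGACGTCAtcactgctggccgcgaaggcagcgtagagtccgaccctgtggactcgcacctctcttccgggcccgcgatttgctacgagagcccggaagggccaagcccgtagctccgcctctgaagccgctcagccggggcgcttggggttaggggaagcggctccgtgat
The Slc16a1 window holds an E-box (CACGTG) at positions -200 to -195 from the start. The Slc38a6 window holds the cyclic AMP response element TGACGTCA at positions -121 to -114. Over all 32851 promoters of that length, searched on both strands, 7.15% hold the E-box and 1.79% the response element. Among the 94 windows of the transporter genes, 12.8% hold an E-box, 11.7% the AP-1 motif TGANTCA (7.81% of all promoters), 6.38% the EGR motif GCGNGGGCG (5.55%) and 4.26% the C/EBP-ATF motif TGATGNAA (3.97%). The NF-kB motif was in 2.13% (1.63% of all promoters) and the response element in 1.06%. The windows of Slc7a8 and Slc7a6os hold no match to these letters.

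The heavy chain Slc3a2 and its light chains were read side by side, since they act as pairs. Slc3a2 read 11.64 and 11.36 without and 11.91 and 11.82 with zymosan, a difference of 0.37 (SE 0.13) that did not pass (adjusted p = 0.107). Among its light chains Slc7a8 rose, as given above. The large neutral amino acid exchanger Slc7a5 differed by 0.17 (adjusted p = 0.513), with overlapping arrays. Slc7a6 differed by 0.31 (adjusted p = 0.082) and Slc7a7, which exports cationic amino acids, by 0.32 (adjusted p = 0.336). The other tested probe set of Slc7a6 differed by 0.15 (adjusted p = 0.546) and that of Slc7a7 by -0.09 (adjusted p = 0.792). Slc7a10 lay below the filter. Slc7a11, the cystine exchanger left out of the set, rose by 1.36 (SE 0.25, adjusted p = 0.0198). It read 4.74 and 3.95 on the unstimulated arrays, the latter below the filter's level, so the size of its difference is not fully measured. Of the other 3 left out, the glucose transporter Slc2a1 rose by 1.25 (SE 0.26), Slc2a3 fell by 0.78 (SE 0.15), and the lactate exporter Slc16a3 differed by 0.55 without passing (adjusted p = 0.224).

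Carriers of glutamine and small neutral amino acids in the Slc1a and Slc38a families are given next. Slc1a5, which exchanges glutamine, read 7.62 and 7.29 without and 8.07 and 7.88 with zymosan (difference 0.52, SE 0.14, adjusted p = 0.0581). Slc38a1, a glutamine importer, read 9.47 and 9.11 without and 9.88 and 9.72 with zymosan (0.52, SE 0.15, adjusted p = 0.0643). The arrays of the groups did not overlap in either gene, and both passed with the filter at the 60th percentile. The other tested probe set of Slc1a5 differed by 0.0031 (adjusted p = 0.99) and that of Slc38a1 by 0.16 (adjusted p = 0.455). Slc38a2, which amino acid shortage is known to induce, read 10.76 and 10.19 without and 10.35 and 10.40 with zymosan, so its zymosan arrays lay between the unstimulated ones (-0.10, adjusted p = 0.766). Slc1a4, an exchanger of small neutral amino acids, had a difference of -0.16 (SE 0.25, adjusted p = 0.703), and its unstimulated arrays read 6.43 and 5.66. The glutamate carrier Slc1a3 differed by 0.07 (adjusted p = 0.782). Of the 6 tested Slc1a genes none passed, and of 7 tested Slc38a genes 1 did.

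The lysosomal arginine sensor Slc38a9, which signals to mTORC1, differed by 0.37 (SE 0.13, adjusted p = 0.101). Its 7 tested probe sets differed by -0.16 to 0.50, and none passed. The proton-coupled carriers Slc36a1, found on lysosomes, and Slc36a4 differed by 0.13 (adjusted p = 0.459) and -0.11 (adjusted p = 0.577). All 5 Slc36a genes were tested, and none passed. Slc7a1, the constitutive arginine importer CAT-1, read 10.01 and 9.44 without and 10.23 and 10.11 with zymosan (0.44, SE 0.19, adjusted p = 0.176).

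In the Slc6a family, the creatine transporter Slc6a8 had the largest fitted difference of all 62 genes. At the probe set that represented it, it read 9.33 and 8.52 without and 9.87 and 9.91 with zymosan. The unstimulated arrays lay far apart, and the difference of 0.97 (SE 0.25) missed the threshold (adjusted p = 0.0504). Without unstimulated replicate 1 it was 1.37, and without unstimulated replicate 2 it was 0.57, so its size depended on which unstimulated array was kept. Its other probe set read 8.69 and 8.23 without and 9.49 and 9.39 with zymosan. There it rose by 0.98 (SE 0.17, adjusted p = 0.0193 over the 27571 probe sets tested).

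The taurine transporter Slc6a6 was lower with zymosan at each of its 4 probe sets. At the one that represented it, it read 11.45 and 11.75 without and 11.25 and 11.10 with zymosan (-0.42, SE 0.13, adjusted p = 0.0845). At another it read 10.22 and 10.68 without and 9.48 and 9.19 with zymosan, and fell by 1.11 (adjusted p = 0.0189). At the third it read 7.02 and 7.32 without and 6.09 and 5.66 with zymosan, and fell by 1.30 (adjusted p = 0.0119). At the fourth the difference was -0.75 (adjusted p = 0.0937). With the mean of its probe sets taken as its value, Slc6a6 fell by 0.90 (adjusted p = 0.00755). The glycine transporter Slc6a9 differed by 0.07 (adjusted p = 0.658), and none of the 10 tested Slc6a genes passed at the representing probe set.

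Probe sets of the same gene often differed in sign or size. Of 23 transporter genes with at least 2 tested probe sets, 11 had all of them on one side of 0. Over the 105 tested probe sets of the 97 genes, 8 rose and 5 fell, or 12.4%, against 15.9% of all probe sets. The orphan carrier Slc38a10 fell by 1.36 (adjusted p = 0.00581) at 1 of its 7 probe sets, which read 8.51 and 8.21 without and 7.09 and 6.91 with zymosan. The other 6 differed by -0.28 to 0.08 and did not pass. Slc43a2, a large neutral amino acid carrier, fell at least 1.42-fold (adjusted p = 0.00231) at 1 of its 3 probe sets, from 4.81 and 4.92 to below the filter's level. That probe set was tested only through its unstimulated arrays, so a difference was built into its selection. Another differed by -0.38 (adjusted p = 0.0649). At the probe set that represented it, it read 10.33 and 10.15 without and 10.19 and 10.24 with zymosan (-0.03, adjusted p = 0.896). One probe set of Slc7a1 fell by 0.66 (adjusted p = 0.0411), while its other 2 differed by 0.44 and 0.39. The one that fell read 5.24 and 4.89 without and 4.48 and 4.34 with zymosan. Its value on zymosan replicate 2 lay below the filter's level, so the size of that fall is not fully measured. Slc16a10, a carrier of aromatic amino acids, rose by 0.68 (adjusted p = 0.0209) at 1 of 4 probe sets, which read 7.61 and 7.64 without and 8.19 and 8.42 with zymosan. It differed by 0.18 (adjusted p = 0.322) at the probe set that represented it. Which transcripts each probe set detects was not analysed here.

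**Figure D3:**
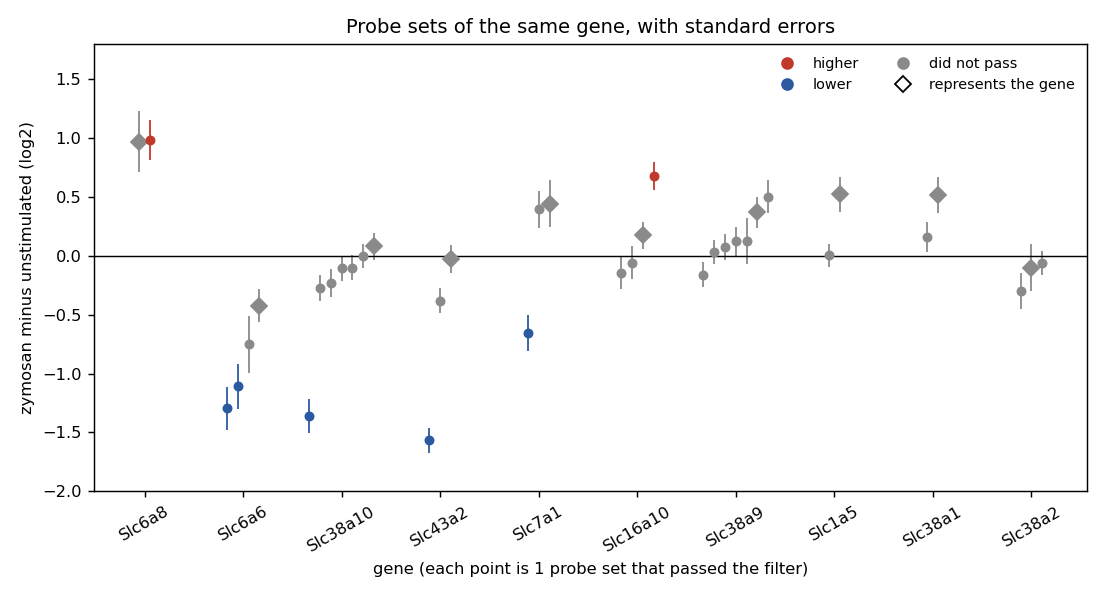
Difference between zymosan and unstimulated arrays (log2, vertical axis) at every tested probe set of 10 transporter genes, with standard errors; diamonds mark the probe set that represents the gene. Both probe sets of Slc6a8 lie near 1 and all 4 of Slc6a6 lie below 0, while 1 probe set each of Slc38a10 and Slc43a2 lies at -1.36 and -1.57, apart from the rest; the latter is a fitted value with both zymosan arrays below the filter's level, so its size is not measured.

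No sugar transporter of the set passed the test. Of the 6 tested Slc2a genes, Slc2a9, a urate carrier, had the largest difference. It read 5.89 and 6.38 without and 5.29 and 5.68 with zymosan (-0.65, SE 0.21, adjusted p = 0.0858), and the groups did not overlap. Slc2a8, an intracellular glucose transporter, differed by -0.28 (adjusted p = 0.121) and Slc2a6, a lysosomal one, by -0.14 (adjusted p = 0.573). Of the 7 tested Slc5a genes none passed. The inositol transporter Slc5a3 read 4.29 and 4.49 without and 4.88 and 4.76 with zymosan (0.43, SE 0.12, adjusted p = 0.0544), and its other tested probe set differed by -0.09. The vitamin transporter Slc5a6 differed by 0.43 (adjusted p = 0.178) and Slc5a2, a renal glucose transporter, by -0.17 (adjusted p = 0.404). Slc5a3 read 4.29 on an unstimulated array and Slc5a6 read 4.12, both below the filter's level, so the sizes of their differences are not fully measured.

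Of the 8 tested Slc16a genes, Slc16a1 was the one that passed. Slc16a6 read 6.11 and 5.54 without and 6.32 and 6.22 with zymosan (0.44, adjusted p = 0.175). With each array left out in turn, the difference of Slc16a6 ran from 0.16 to 0.73. The monocarboxylate carrier Slc16a7 differed by -0.22 (adjusted p = 0.322) and Slc16a13 by -0.07 (adjusted p = 0.684).

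The spread of the unstimulated pair was as large as many of these differences. The unstimulated arrays differed by a median of 0.20 in size over the 62 genes and the zymosan arrays by 0.11. In 8 genes the unstimulated arrays were at least 0.5 apart, and in 0 genes the zymosan arrays were. The difference between groups was larger than that within the unstimulated pair for 31 of the 62 genes, and for all 6 that rose. For those 6 this follows in part from the test, which sets the difference against the spread of the same arrays. The share over all genes was not counted.

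**Figure D4:**
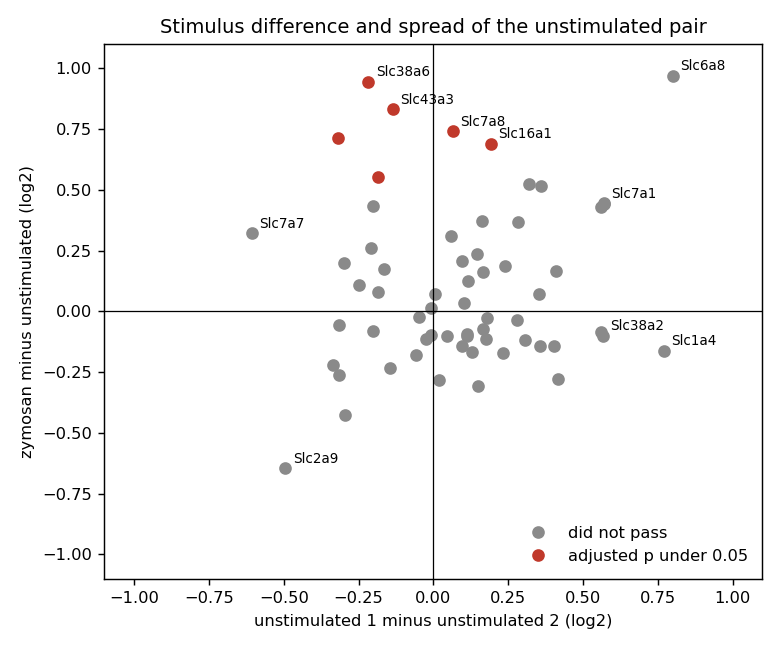
Difference between groups (log2, vertical axis) against the difference within the unstimulated pair (log2, horizontal axis), 1 point for each of the 62 tested genes; both axes use the unstimulated arrays, so they are not independent. The 6 called genes in red lie between -0.32 and 0.19 on the horizontal axis, and Slc6a8, at 0.97 on the vertical axis, lies furthest to the right.

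Genes that work with these transporters were read from lists chosen beside them. Of all genes tested, 10.1% rose and 6.73% fell, and the counts below are read against those shares. Of 13 tested partners and regulators, 1 rose and 1 fell. Bsg, or basigin, the chaperone that Slc16a1 needs to reach the membrane, read 11.10 and 10.82 without and 10.36 and 10.10 with zymosan. It fell by 0.73 (SE 0.14, adjusted p = 0.0234), opposite to Slc16a1. Slc15a3, a peptide and histidine transporter of lysosomes, read 10.29 and 9.96 without and 11.02 and 10.95 with zymosan, and rose by 0.86 (SE 0.13, adjusted p = 0.0125). Emb, another chaperone of monocarboxylate carriers, differed by -0.02 (adjusted p = 0.945).

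Of 26 tested enzymes that act on the carried substrates, 5 rose and 2 fell, where 10.1% and 6.73% of all genes did. Hk2, a hexokinase that traps glucose, rose by 0.81 (SE 0.14, adjusted p = 0.0158), and Odc1, which makes polyamines from ornithine, by 0.79 (SE 0.12, adjusted p = 0.0115). The other 2 tested probe sets of Odc1 differed by 0.54 (adjusted p = 0.0918) and 0.27 (adjusted p = 0.223). Hk3, Psat1 and Acly also rose. Ckb, the brain-type creatine kinase, read 12.06 and 11.96 without and 10.35 and 10.38 with zymosan, and was 3.12-fold lower (-1.64, SE 0.10, adjusted p = 0.000839). Bcat2, a branched-chain aminotransferase, fell by 0.68 (adjusted p = 0.0158). Nos2, the inducible nitric oxide synthase that uses arginine, differed by -0.12 (adjusted p = 0.491), and Arg1 lay below the filter.

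Of 37 tested genes of amino acid sensing through mTORC1 and GCN2, 4 rose and 3 fell, against 16.8% of all genes called in either direction. Rragd, Rraga and Rragc are Rag GTPases, which place mTORC1 on lysosomes. Rragd read 6.67 and 6.52 without and 8.26 and 8.19 with zymosan and rose 3.10-fold (adjusted p = 0.00103). Rraga read 9.14 and 9.35 without and 7.57 and 7.14 with zymosan and was 3.70-fold lower (adjusted p = 0.00269). Rragc read 11.25 and 11.17 without and 11.25 and 11.22 with zymosan (0.03, adjusted p = 0.886). Mtor rose by 0.58 (adjusted p = 0.0151), though another of its probe sets differed by -0.03 without passing. Akt1s1, an inhibitory subunit of mTORC1, fell by 0.88 (adjusted p = 0.00514). Ddit4 and Lamtor5 also rose and Sesn2 fell. Without either zymosan array in turn, limma called 0 partners, 1 enzyme, which was lower, and 1 sensing gene in each direction.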

How the data were processed

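RNA was measured on 4 Affymetrix Mouse430_2 arrays, from 4 ug of total RNA each. The deposited values are on a log2 scale; the submitters' processing notes name RMA as the method the authors used. Its version and the arrays it took as one set are not stated in the labels or headers. The deposited scanner settings hold no expression values and gave the scan day and operator.

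Of 45037 probe sets left without 64 controls, 34945 had 1 gene symbol in the platform annotation, 932 several and 9160 none. The filter kept 27571 probe sets, and each gene was represented by its kept probe set of highest mean, which gave 13222 genes. Differences are zymosan minus unstimulated, fitted with lmFit and eBayes in limma 3.58.1 (R 4.3.3), 2-sided, with Benjamini-Hochberg adjustment over all genes or, for probe sets, over all probe sets. SE is the moderated one. An exact permutation test of 2 arrays against 2 cannot give a p under 0.333. The fit was tested on simulated data. For a group with both arrays under the filter's level, the fold was taken against that level. The number of arrays limits the precision.

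Genes named are every member past the threshold whose arrays do not overlap, the member of highest mean in each family, members of interest, and the genes of smallest p in each related list. Slc38a10, the genes given as below the level, the markers and some related genes were named after their values were seen. The members, lists and motifs were chosen with earlier results of these data known. Alternatives were the filter, scaling, probe set choice, variance prior, scan day as a block and each array left out.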

Additional observations from a re-analysis of the deposited data

How the results depend on the processing

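No paired analysis was possible because neither the labels nor the titles pair an unstimulated array with a zymosan array. The 6 genes that rose also passed with no filter, with either scaling of the arrays, with the mean over probe sets and with a trended variance prior. The planned duplicateCorrelation gave no estimate with 4 arrays, so the correlation within a scan day (0.57) was taken from pooled variances, chosen after seeing the data. With that block, 453 genes were higher and 307 lower, 2 transporters were higher, 1 enzyme was higher and 1 lower, 1 sensing gene was higher, and 0 partners were lower. The median difference of the transporters was 0.0812 with the 60th percentile filter and -0.0265 with the mean over probe sets. With that mean, 3 transporters were lower (Slc2a9, Slc43a2 and Slc6a6), 2 sensing genes were higher, 2 partners were higher and 2 lower, and Slc6a9 differed by -0.0041. With the 60th percentile filter and with the trended prior 2 partners were higher, and with that prior 5 sensing genes were lower. Over the fits that each left out 1 array, 132 to 1850 genes were higher and 91 to 1132 lower, 0 to 13 transporters were higher and 0 to 3 lower, and their median ran from 0.0023 to 0.0616. There, 0 to 3 partners were higher and 0 to 1 lower, 0 to 12 enzymes higher and 1 to 3 lower, and 1 to 8 sensing genes higher and 1 to 7 lower. In the same fits Slc16a13 (-0.16 to 0.0089), Slc1a3 (-0.11 to 0.25), Slc1a4 (-0.55 to 0.22), Slc2a6 (-0.34 to 0.0596), Slc38a2 (-0.38 to 0.18), Slc43a2 (-0.12 to 0.0616) and Slc7a5 (-0.0397 to 0.37) changed sign. The cause was not tested. Where a group was left with 1 array, that array was assumed to vary like the other group.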
